A study of Mus musculus with 6 samples.

Results

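The genes described here are 40 collagens and other extracellular matrix genes, a set taken by name from the 29590 genes on the array. They hold 6 chains of fibrillar collagens, 6 chains of other collagens, 8 basement membrane genes, 4 proteoglycan genes, 4 elastic fibre genes, 6 genes of collagen folding, processing and crosslinking, and 6 genes of adhesive and matricellular glycoproteins. All 40 had a probe, and 38 were well above background on at least 1 array. Col11a1, a chain of cartilage type XI collagen, and Lum, which encodes the small proteoglycan lumican, were not well above background on any of the 6 arrays.

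RNA was taken from cultures of mouse bone marrow-derived mast cells, with or without fibroblasts. It was hybridised to 6 single-colour Agilent arrays, 1 for each group, from pools of 3 samples. The mast cells had been grown in interleukin-3 (10 ng/ml). Mast cells labelled Pla2g3+/+ or Pla2g3-/- were arrayed alone, and both were also arrayed after 4 days on wild-type Swiss 3T3 fibroblasts (a long-established line from mouse embryos) in the presence of stem cell factor (100 ng/ml). In the other two groups, wild-type mast cells were kept in the same way on Lpar1+/+ or Lpar1-/- Swiss 3T3 fibroblasts, the latter obtained with CRISPR/Cas9 and single-cell cloning. The product of Pla2g3 is a phospholipase A2 that cells secrete, and that of Lpar1 is a lysophosphatidic acid receptor. Stem cell factor is not stated for the cultures without fibroblasts. The sources used here do not say whether the pooled samples came from separate animals. The clone and the Lpar1 deletion cannot be told apart.

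The extracellular matrix is the network of secreted proteins around cells, and fibroblasts are its main source in connective tissue. Fibrillar collagens are secreted as procollagens, trimmed by proteases and crosslinked by lysyl oxidases into fibres. Laminins, type IV collagen, nidogens and perlecan form the basement membrane, and proteoglycans and glycoproteins such as fibronectin bind fibres, growth factors and cell surface receptors. Mast cells are rich in intracellular proteoglycan but are not known as a main source of fibrillar collagen.

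Each level below is the log2 signal of a gene's brightest probe relative to the 75th percentile of its array, and each difference is between 2 such levels. A level has meaning only against the same probe on another array. A difference counted as higher or lower at 2-fold or more, which is 1 on the log2 scale. For a gene that the scanner software marked as well above background on exactly 1 of the arrays compared, only a bound can be given, written "at least". Genes marked on neither were not compared. With 1 array per group no test over cultures was possible. Both wild-type cocultures therefore served as a yardstick: 95% of genes differed between them by no more than 0.54. Of 37 matrix genes compared between them, 0 were higher and 0 lower by 2-fold, against 0.803% and 0.166% of all genes. The 36 matrix genes measured in both stayed within that limit, with differences from -0.30 to 0.40. The scanner software put the error of a matrix gene's difference at a median of 0.20, an error that leaves out differences between cultures.

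The 75th percentile of signal lay between 1230 and 1520 units on the 6 arrays, and the share of spots well above background ran from 70.7% to 80.4%. Slide 1 carried both arrays of mast cells alone and slide 2 the 4 cocultures. The effects of slide and coculture cannot be told apart. Within a coculture difference, the parts of fibroblasts, stem cell factor and the 4 days of culture cannot be told apart either. Comparisons between cocultures lay within slide 2. Pla2g3 itself went against its label. It read -6.31 under Pla2g3+/+ and 0.51 under Pla2g3-/- in mast cells alone, and in the matching cocultures -7.31 and -1.84. It read -6.58 and -4.85 with wild-type mast cells on Lpar1+/+ and Lpar1-/- fibroblasts. The sources used here do not say which part of the gene was deleted. A probe outside that part and an exchange of the 2 labels were not tested and cannot be told apart here. Mast cells of this genotype are called Pla2g3-/- labelled below, and every direction given for them depends on the label. Lpar1 read -2.84 and -2.85 in mast cells alone, -4.34 and -3.58 in coculture under the same 2 labels, and -4.14 and -3.89 with Lpar1+/+ and Lpar1-/- fibroblasts. The probe was brighter without fibroblasts, so it does not check the fibroblast genotype.

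The matrix genes were measured by 59 probes of 60 bases. Of these probes, 3 had a genomic span longer than the probe itself, so that they cross a splice junction and read spliced RNA. They are shown because they read spliced RNA. For Thbs2 it is the only probe, and for Nid1 and Tnc it is the second brightest, so that levels of those genes given without a further remark come from another probe. Coordinates are those of the array files on mm9. They are chr13:13530138-13555992 (plus strand) for Nid1, chr17:14804526-14805789 (minus strand) for Thbs2 and chr4:63674248-63675011 (minus strand) for Tnc.
Nid1: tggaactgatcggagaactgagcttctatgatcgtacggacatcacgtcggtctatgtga
Thbs2: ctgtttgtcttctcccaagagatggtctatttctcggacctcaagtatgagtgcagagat
Tnc: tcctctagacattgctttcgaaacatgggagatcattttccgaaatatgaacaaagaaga

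A probe of Col16a1 at chr4:129756457-129756516 (mm9, plus strand) shows the repeat that defines collagens. The triplets GGN, which encode glycine, are in capitals, and 5 of them follow each other at a spacing of 9 bases, the pattern of a helix with glycine at the start of a repeated triplet of residues.
Col16a1: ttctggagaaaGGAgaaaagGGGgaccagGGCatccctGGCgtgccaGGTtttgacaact

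The signal of most matrix genes was higher on the Pla2g3+/+ coculture array than on the array of Pla2g3+/+ mast cells alone. Of 36 genes that could be compared, 29 were higher, 2 were lower and 5 stayed within 2-fold, with a median of 5.48, and 16 of these differences were lower bounds. Over all genes tested, 13.0% were higher and 7.52% lower, with a median of 0.13. The Pla2g3-/- labelled pair gave 30 higher, 2 lower and 4 within 2-fold of 36, with a median of 4.25, against 11.4% of all genes higher and 7.3% lower. After normexp background correction, which estimates the true signal from the spot and its local background, the medians of the members were 2.66 and 2.04. Among the 20 members well above background on both arrays of a pair, 13 and 14 were higher, with medians of 3.22 and 2.17. All genes under the same filter had medians of 0.10 and 0.12, and their share past 2-fold was not computed. In all, 29 members were higher in both pairs. The level patterns on the 6 arrays were of few kinds. There were 15 genes not well above background in mast cells alone and well above it in all 4 cocultures, 2 that were also above it on 1 array of mast cells alone, and 19 above it on every array. The remaining pair, Postn and Tnc, was above background on some of the cocultures. Of all 29590 genes, 19746 were above background on every array by at least 1 probe. The shares of all genes in the other patterns were not computed.

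**Figure D1:**
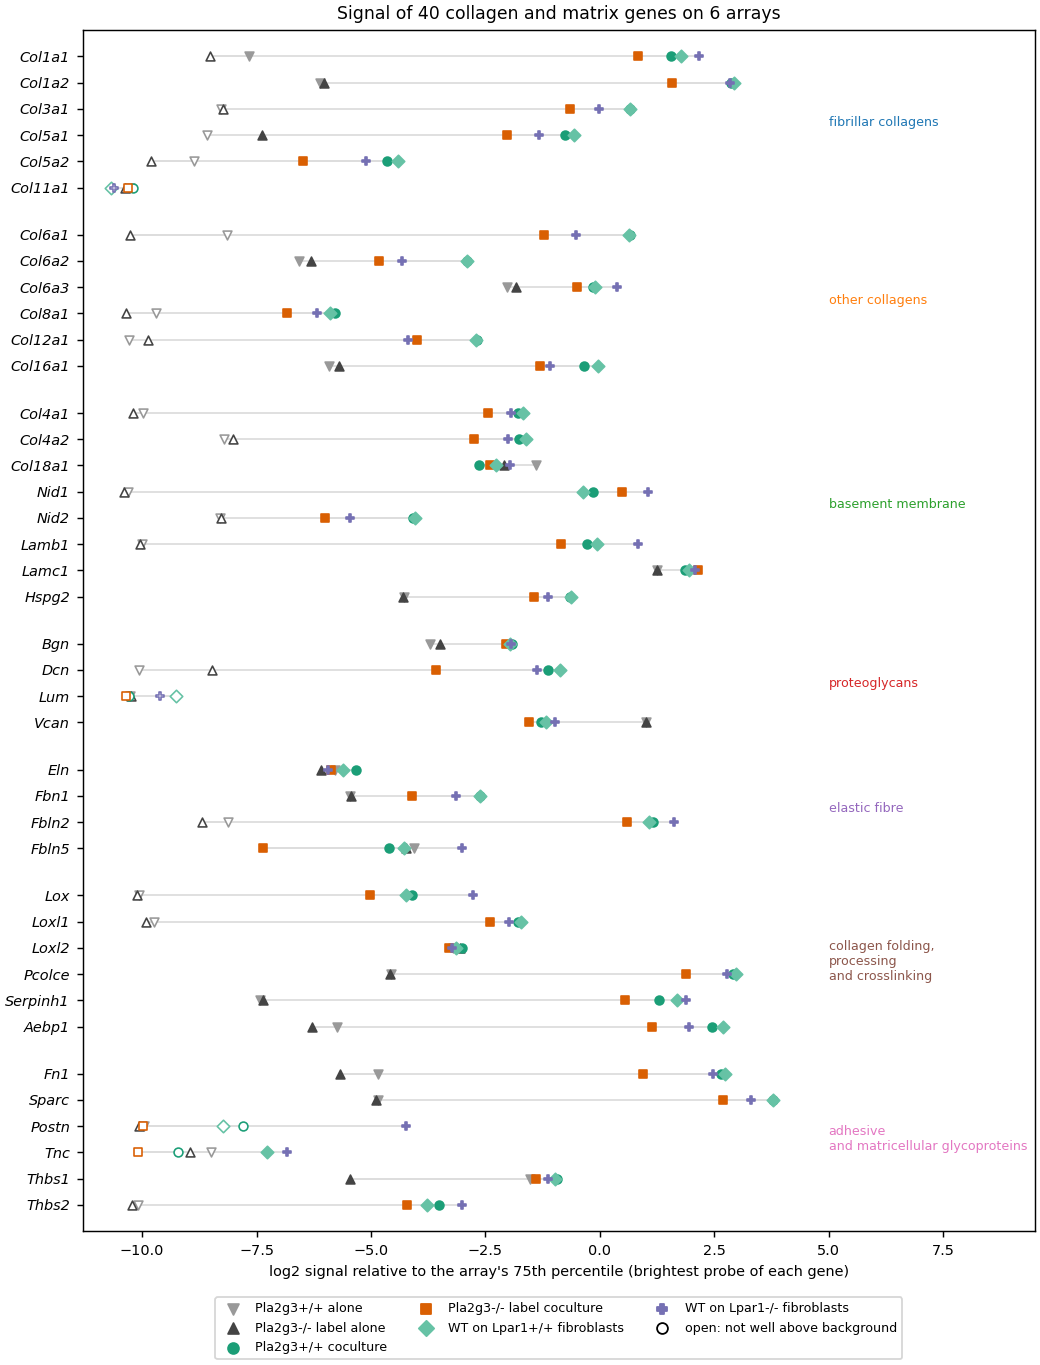
Level of the brightest probe of each of the 40 matrix genes on the 6 arrays (x axis, log2 signal relative to the array's 75th percentile), grouped by class; filled symbols were well above background and open symbols were not. For most genes the 4 coculture symbols lie far to the right of both symbols of mast cells alone, while Vcan lies to the left and Lamc1, Eln and Loxl2 stay within 2-fold.

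Markers of fibroblasts that are not matrix genes moved with coculture as well. Of 23 such markers, 17 were higher in each of the 2 coculture comparisons, with medians of 2.19 and 2.54. Their summed signal, in multiples of the array's 75th percentile, was 7.51 and 7.53 in mast cells alone and 24.3 to 60.9 in the cocultures. Much of that sum was S100a4, which read 2.13 and 2.27 in mast cells alone too. Of the defining markers, Pdgfra, the platelet-derived growth factor receptor alpha, was not well above background in mast cells alone and was well above it in all 4 cocultures, whereas Thy1 had coculture differences of -5.35 and -3.33. Mast cell markers were well above background on every array, 14 of 14. Of 8 endothelial markers, 6 were well above background on every array, with a summed signal of 14.5 to 25.8, while Cdh5 and Emcn were so on none. Neutrophil and eosinophil markers moved with coculture too. For Pla2g3+/+ 10 of 12 were lower, with a median of -4.07 and a summed signal of 41.9 alone against 4.23. For the Pla2g3-/- label 5 of 11 were lower and 1 higher, with a median of -0.58 and a summed signal of 2.65 alone against 2.04. Their part in the matrix differences was not tested. The sources used here do not say whether the cells had been separated by reseeding or by CD117 beads before RNA was taken. In RNA of several cell types, fewer cells of a type and less RNA per cell cannot be told apart. The part of fibroblast RNA in each coculture array and in each matrix signal was not tested.

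Type I collagen, the main fibre protein of connective tissue, showed some of the largest coculture differences. Col1a1 (chr11:94813115-94813174, mm9) read -7.67 in Pla2g3+/+ mast cells alone and -8.52, not well above background, for the Pla2g3-/- label. With fibroblasts it read 1.56 and 0.84 under the 2 labels, and 1.77 and 2.16 on Lpar1+/+ and Lpar1-/- fibroblasts. All cocultures lay far above both arrays without fibroblasts, by 601-fold for Pla2g3+/+ and at least 495-fold for the Pla2g3-/- label. Col1a2, the partner chain (chr6:4490619-4490678), read -6.11 and -6.03 alone, 2.87 and 1.58 in coculture under the 2 labels, and 2.93 and 2.84 on Lpar1+/+ and Lpar1-/- fibroblasts. The Pla2g3-/- labelled coculture was the lowest of the 4 for both chains, yet its differences from mast cells alone were still 195-fold for Col1a2 and the bound above for Col1a1.

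The other fibrillar chains followed. Col3a1, type III collagen of elastic tissues (chr1:45405589-45405648), was not well above background alone and read 0.67, -0.66, 0.67 and -0.02 in the cocultures, in the order Pla2g3+/+, Pla2g3-/- label, Lpar1+/+ and Lpar1-/- fibroblasts that is used for all groups of 4 below. It was higher by at least 432-fold and by at least 175-fold. Col5a1 and Col5a2 encode chains of type V collagen, which helps to start fibrils. Col5a1 read -8.59 (not well above background) and -7.39 alone, and -0.76, -2.02, -0.56 and -1.34 in coculture. Col5a2 was higher by at least 10.9-fold and by at least 3.09-fold. All 5 measured fibrillar chains were thus higher in both pairs, and the wild-type cocultures were above the other two for each chain except Col1a1.

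Among the other collagens all 6 genes were higher in both pairs. Col6a1 (chr10:76171538-76171597), a chain of the beaded filaments of type VI collagen, was not well above background alone and read 0.65, -1.22, 0.64 and -0.52 in coculture. Col6a2, its partner, read -6.57 and -6.30 alone. In coculture it read -2.91, -4.82, -2.91 and -4.33, a rise of 12.7-fold and 2.79-fold. Col6a3, the large remaining chain, was already well above background in mast cells alone, at -2.03 and -1.83, and read -0.15, -0.50, -0.10 and 0.38 in coculture. This chain therefore differed by only 3.68-fold and 2.50-fold between coculture and mast cells alone. Col16a1, a fibril-associated collagen, was 46.9-fold and 20.9-fold higher, and Col12a1, another of that kind, by at least 42.4-fold and by at least 17.4-fold. Col8a1, which builds short-chain networks, was higher by at least 4.92-fold and by at least 2.41-fold.

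Basement membrane genes were less uniform, with 6 of 8 higher in both pairs. Col4a1 (chr8:11199009-11199068) and Col4a2 (chr8:11448840-11448899), the main chains of type IV collagen, were not well above background alone. Col4a1 read -1.79, -2.45, -1.68 and -1.94 in coculture, and Col4a2 read -1.76, -2.75, -1.61 and -1.996, so both chains had the same order of the 4 arrays. The nidogens, which link laminin to type IV collagen, were both not well above background alone. Nid1 was higher by at least 244-fold and by at least 384-fold, and Nid2 by at least 16.05-fold and by at least 4.34-fold. Lamb1, the laminin beta 1 chain, was higher by at least 224-fold and by at least 153-fold, while Lamc1, the laminin gamma 1 chain, read 1.24 and 1.26 alone and between 1.86 and 2.15 in the cocultures. Hspg2, the gene of perlecan, was 12.3-fold and 7.23-fold higher. Col18a1, whose product releases endostatin, was the exception in direction. It read -1.40 and -2.10 alone and -2.64, -2.39, -2.27 and -1.97 in coculture, a difference of -1.24 for Pla2g3+/+ and of -0.29, within 2-fold, for the Pla2g3-/- label. With the Lpar1+/+ coculture in place of the Pla2g3+/+ coculture, the Col18a1 difference was within 2-fold, so that 1 member rather than 2 was lower.

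Col4a1 and Col4a2 are known to be read in opposite directions from a shared start region, and the promoter windows of RefSeq (GRCm38.p6) for them overlapped by 78 bases. Their annotated start sites lay 21 bases apart on chr8, at 11312826 for Col4a1 (minus strand) and 11312805 for Col4a2 (plus strand). The annotated transcripts thus overlap at chr8:11312805-11312826, a stretch that lies after both starts. It is shown with the motif GGGCGG in capitals.
Col4a1-Col4a2: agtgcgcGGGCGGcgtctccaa

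Proteoglycans went both ways. Bgn, the gene of biglycan (chrX:70738554-70738613), read -3.71 and -3.49 alone and -1.91, -2.06, -1.97 and -1.94 in coculture, 3.48-fold and 2.70-fold higher, with the 4 cocultures closer together than for any collagen chain above. Dcn, the gene of decorin, which binds collagen fibrils (chr10:96980233-96980292), was not well above background alone and read -1.14, -3.58, -0.88 and -1.37 in coculture. It was higher by at least 124-fold and by at least 23.1-fold. Vcan, the gene of versican, a large proteoglycan that binds hyaluronan (chr13:89795080-89795139), had the opposite direction. It read 1.01 and 1.02 in mast cells alone and -1.29, -1.56, -1.18 and -0.97 in coculture. All 4 cocultures were below both arrays without fibroblasts, with differences of -2.29 for Pla2g3+/+ and -2.58 for the Pla2g3-/- label. Each of the 3 Vcan probes was lower in both pairs, with differences of -1.08 to -3.26 for Pla2g3+/+ and -1.24 to -2.79 for the Pla2g3-/- label.

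In the elastic fibre class, Fbln2 had the largest bound of all members in the Pla2g3+/+ pair. Fbln2, the gene of fibulin-2 (chr6:91222118-91222177), was not well above background alone and read 1.15, 0.60, 1.07 and 1.63 in coculture, higher by at least 607-fold and by at least 419-fold. Fbn1, the gene of the microfibril protein fibrillin-1, read -5.45 and -5.44 alone and -2.63, -4.09, -2.62 and -3.15 in coculture. Its rise was 7.08-fold under Pla2g3+/+ and 2.54-fold under the Pla2g3-/- label. Eln, which encodes tropoelastin (chr5:135179129-135179188), was nearly level, at -5.78 and -6.09 alone and -5.32, -5.87, -5.62 and -5.94 in coculture. Fbln5, a fibulin needed for elastic fibre assembly (chr12:102988153-102988212), read -4.06 and -4.24 alone and -4.62, -7.36, -4.28 and -3.01 in coculture. The Pla2g3-/- labelled coculture thus stood apart from the 5 other arrays for Fbln5, 8.65-fold below the same label alone. The weaker second probe of Fbln5 was not well above background on any of the 6 arrays.

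Genes of collagen folding, processing and crosslinking were higher in 5 of 6 cases in both pairs. Serpinh1 encodes the collagen chaperone HSP47. It was 421-fold and 240-fold higher, from -7.43 and -7.35 alone. Pcolce, an enhancer of procollagen trimming, was 179-fold and 87.7-fold higher. Aebp1, whose secreted product binds collagen, was 294-fold and 173-fold higher. Lox (chr18:52676912-52676971), a lysyl oxidase that crosslinks collagen and elastin, was not well above background alone and read -4.11, -5.03, -4.25 and -2.78 in coculture. It was higher by at least 15.8-fold and by at least 8.49-fold, and Loxl1 by at least 78.9-fold and by at least 52.1-fold. Loxl2 was level across all arrays by its brightest probe, between -3.29 and -3.01.

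Adhesive glycoproteins of the wound and tissue matrix were high in the cocultures as well. Fn1, the gene of fibronectin (chr1:71632116-71632175), read -4.84 and -5.67 alone and 2.64, 0.94, 2.73 and 2.48 in coculture, 179-fold and 97.7-fold higher. Sparc, which encodes a collagen-binding matricellular protein, was 393-fold and 191-fold higher. Thbs2, the gene of thrombospondin-2 read by the junction probe above, was not well above background alone and read -3.51, -4.21, -3.77 and -3.02 in coculture, higher by at least 23.9-fold and by at least 14.9-fold. Thbs1, the gene of thrombospondin-1 (chr2:117952585-117952644), behaved differently. It read -1.52 in Pla2g3+/+ mast cells alone, -5.46 under the Pla2g3-/- label alone, and -0.93, -1.38, -0.97 and -1.12 in coculture. Only the array of Pla2g3-/- labelled mast cells alone was low, so the coculture difference was 0.59 for Pla2g3+/+ and 4.08 for the Pla2g3-/- label.

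**Figure D2:**
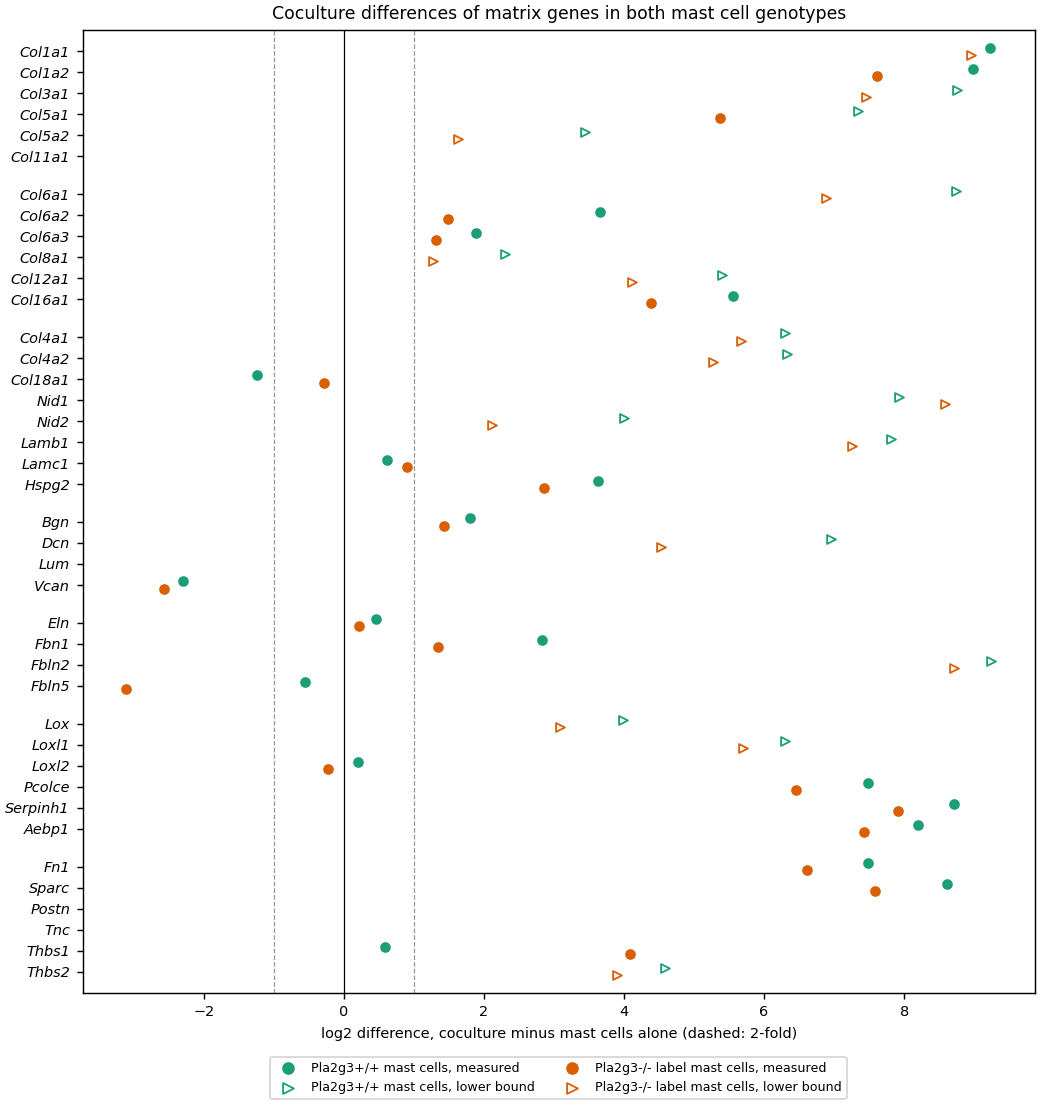
Coculture difference of each matrix gene (x axis, log2, coculture minus mast cells alone) for Pla2g3+/+ (green) and Pla2g3-/- labelled (orange) mast cells; open triangles are lower bounds and dashed lines mark 2-fold. Of 36 genes, 29 were higher for Pla2g3+/+ and 30 for the Pla2g3-/- label, and Vcan is the one gene lower by 2-fold in both.

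Without fibroblasts the 2 labels differed little in matrix genes. Of 21 genes that could be compared, 0 were higher and 1 was lower under the Pla2g3-/- label, and 20 stayed within 2-fold, with a median of 0.01. Over all genes, 0.423% were higher and 1.58% lower. The lower gene was Thbs1, at -3.94. Fn1 and Col18a1 followed at -0.83 and -0.70, and Col5a1 was highest, at least 0.70 higher on the log2 scale. The second probe of Col18a1 differed by -1.08, past 2-fold. Neutrophil and eosinophil markers moved with this comparison: 10 of 12 were lower, with a median of -4.27 and a summed signal of 41.9 against 2.65. Their part in the Thbs1 difference was not tested.

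In coculture the array with the Pla2g3-/- label had a lower signal of many matrix genes than the Pla2g3+/+ array. Of 36 genes, 0 were higher, 16 were lower and 20 stayed within 2-fold, with a median of -0.94. All of these differences were measured on both arrays. Over all genes tested, 9.1% were higher and 10.4% lower, with a median of -0.08. A difference below 0 was found for 33 of the 36 matrix genes and for 55.4% of all genes. Set against both wild-type cocultures, 33 of 36 genes under the label lay below both arrays, 2 above both and 1 between. After normexp background correction 9 rather than 16 members were lower by 2-fold.

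Fibroblast markers outside the matrix had a median difference of -0.38 in the same comparison, against -0.94 for the matrix genes, and 7 of 23 markers were lower and 1 higher. Their summed signal gave the opposite order. It was 60.9 against 24.3, a wider gap than that of the 40 matrix genes, at 62.9 on the Pla2g3+/+ and 33.4 on the Pla2g3-/- labelled coculture. Much of the marker sum was S100a4, which differed by -1.70. Relative to the marker median, 27 of 36 matrix genes lay within 1 log2 unit, 8 lay below that range and 1, Nid1, above it. Of 10 macrophage markers 5 were lower and 0 higher, with a median of -0.85 and a summed signal of 18.0 against 15.8. Of 14 mast cell markers 5 were lower and 0 higher, with a median of -0.16 and a summed signal of 763.5 against 741.5. The part of cell composition, fibroblast RNA included, in the matrix differences was not tested.

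The lower genes were spread unevenly over the classes. Class medians were -1.29 for fibrillar collagens, -1.18 for other collagens, -1.01 for elastic fibre genes and -0.89 for glycoproteins. They were -0.83 for folding and processing genes, -0.62 for the basement membrane and -0.27 for proteoglycans. The proteoglycan median rested on 3 genes, Bgn (-0.14), Vcan (-0.27) and Dcn (-2.45). With Hspg2 counted as a proteoglycan, it was -0.53, against -0.57 for the basement membrane. Of fibrillar collagens 4 of 5 were lower by 2-fold, namely Col1a2, Col3a1, Col5a1 and Col5a2, with differences of -1.29, -1.33, -1.27 and -1.84. Col1a1, at -0.72, stayed within 2-fold although it forms trimers with Col1a2. Of other collagens Col6a1, Col6a2, Col8a1 and Col12a1 were lower, whereas Col6a3, also of type VI collagen, differed by -0.35. In the basement membrane class Nid2 was the single gene past 2-fold, at -1.91. Its relative Nid1 had the opposite sign, 0.63, and with Col18a1 (0.25) and Lamc1 (0.30) it made up the 3 members above 0.

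The 3 lowest members were Fbln5 (-2.74), Dcn (-2.45) and Col6a2 (-1.92). Fbln5 read -7.36 under the label against -4.62 on the Pla2g3+/+ and -4.28 on the Lpar1+/+ coculture, so it lay far below both wild-type arrays. Dcn read -3.58 against -1.14 and -0.88, and again both wild-type arrays were well above it. The other members past 2-fold were Fn1 (-1.71), Fbn1 (-1.46), Aebp1 (-1.30), Sparc (-1.08), and Pcolce (-1.04). Of the 16 lower members, 15 were also lower by 2-fold against the Lpar1+/+ coculture, with Col8a1 as the exception. The folding and crosslinking genes Serpinh1 (-0.74), Lox (-0.92), Loxl1 (-0.62) and Loxl2 (-0.28) stayed within 2-fold.

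With wild-type mast cells on Lpar1-/- fibroblasts, matrix genes moved both ways against Lpar1+/+ fibroblasts. Of 38 genes, 4 were higher, 5 lower and 29 within 2-fold, with a median of -0.23, while 11.3% of all genes were higher and 8.84% lower, with a median of -0.05. The members' count of 2-fold differences was near this background in both directions. A difference below 0 was found for 23 of 38 matrix genes and 52.8% of all genes. The 4 higher genes were Postn, Lox, Nid1 and Fbln5. The 5 lower genes were Col12a1, Col6a2, Nid2, Col6a1 and Col16a1. With the mean of all probes of a gene 2 members were lower, and after normexp 3 were.

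**Figure D3:**
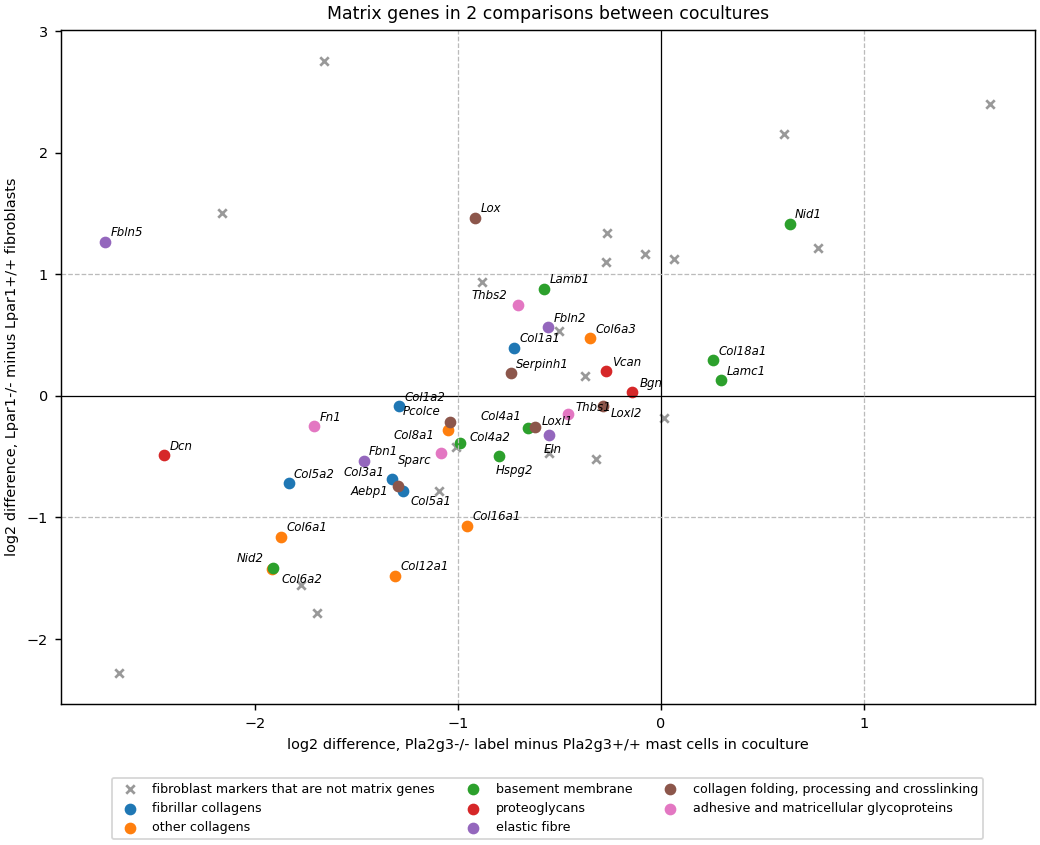
Difference of each matrix gene between cocultures under the 2 mast cell labels (x axis, log2) and between Lpar1-/- and Lpar1+/+ fibroblasts (y axis, log2), coloured by class, with fibroblast markers that are not matrix genes as grey crosses where measured in both. Most matrix genes lie left of 0, Fbln5 and Lox lie upper left, Nid1 lies upper right, and Col6a1, Col6a2, Col12a1 and Nid2 lie beyond 2-fold at lower left.

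Among the 5 lower genes, 4 were collagen chains and Nid2 was the other. Col12a1 (chr9:79446895-79446954) read -2.71 on Lpar1+/+ and -4.19 on Lpar1-/- fibroblasts, with -2.68 on the Pla2g3+/+ coculture, a difference of -1.48. Col6a2 differed by -1.42 and Col6a1 by -1.16, while Col6a3 differed by 0.47 the other way. The second probe of Col6a2 differed by -0.28. Col16a1 differed by -1.07. Its second probe, 127 bases away, differed by -1.20, and against the Pla2g3+/+ coculture the brightest probe stayed within 2-fold. The Col16a1 helix probe printed above differed by 0.14. The dimmest Col16a1 probe, well above background on the Lpar1-/- array alone, was higher there by at least 0.54. Nid2 (chr14:20630490-20630549) read -4.05 and -5.46, with -4.09 on the Pla2g3+/+ coculture, a difference of -1.41. For Col12a1 and Nid2 both wild-type cocultures lay within 0.05 of each other and well above the Lpar1-/- array.

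Type I collagen stayed level in this comparison, with Col1a1 at 0.40 and Col1a2 at -0.08, both within the yardstick of 0.54. Col3a1 (-0.69), Col5a1 (-0.78) and Col5a2 (-0.72) lay beyond the yardstick and within 2-fold. Class medians were -1.11 for other collagens, -0.69 for fibrillar collagens, -0.15 for folding and processing genes, -0.07 for the basement membrane, 0.03 for proteoglycans, 0.12 for elastic fibre genes and 0.14 for glycoproteins. Fn1 (-0.25), Sparc (-0.47) and Dcn (-0.49) were within the yardstick.

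Postn, the gene of periostin, a matricellular protein that binds collagen (chr3:54194840-54194899), was well above background on the Lpar1-/- array alone. It read -4.24 there, and -7.80, -9.98 and -8.23 on the other 3 cocultures, so it was at least 15.9-fold higher than with Lpar1+/+ fibroblasts. Lox read -4.25 on Lpar1+/+ and -2.78 on Lpar1-/- fibroblasts, a difference of 1.47, and its second probe differed by 1.22. Nid1 (chr13:13604435-13604494) read -0.36 on Lpar1+/+ and 1.06 on Lpar1-/- fibroblasts, with -0.16 under Pla2g3+/+ and 0.47 under the Pla2g3-/- label. The Lpar1-/- array was the highest of the 4, by 1.41 over Lpar1+/+. The other Nid1 probes differed by 0.56 (the junction probe) and 1.60, the same direction. Fbln5 read -4.28 and -3.01, a difference of 1.27.

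Lamb1 (0.88), Thbs2 (0.75) and Fbln2 (0.56) were higher by more than the yardstick and less than 2-fold. Tnc, the gene of tenascin-C, was well above background on both arrays of this comparison, at -7.27 and -6.83, and on no other array. Its difference of 0.44 was within the yardstick, while the junction probe of Tnc was well above background on the Lpar1-/- array alone, at -7.61. The nidogens thus took opposite directions, Nid1 up and Nid2 down, and Lox rose while Loxl1, at -0.26, did not pass 2-fold.

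Fibroblast markers outside the matrix did not follow the collagens in the Lpar1 comparison. Of 23 markers, 10 were higher and 3 lower, with a median of 0.63. Among them Thy1 was higher by 7.61, Acta2, the smooth muscle actin gene, by 2.76, and Twist2 by 2.40. Their summed signal was 56.7 on Lpar1+/+ and 34.6 on Lpar1-/- fibroblasts, a direction opposite to the median and that of S100a4, which differed by -1.78. The summed signal of the matrix genes was 66.8 and 60.4. Relative to the marker median, 23 of 37 measured matrix genes lay within 1 log2 unit, 14 lay below and 0 above. Postn, at least 3.99 higher, was a bound and is left out of these counts. Neutrophil and eosinophil markers were higher in 9 of 10 cases, with a median of 2.19. Mast cell markers were lower in 5 of 14 cases and macrophage markers in 3 of 11, with none higher. The part of cell composition in these differences was not tested.

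Set side by side, the 2 comparisons between cocultures share no array, although all 4 arrays lie on slide 2. Of 36 genes measured in both, 4 were lower by 2-fold in both: Col6a1, Col6a2, Col12a1 and Nid2. Another 10 were below 0 under the Pla2g3-/- label and above 0 with Lpar1-/- fibroblasts, and 3 were above 0 in both. These counts are 11.1%, 27.8% and 8.33% of the 36 genes. Over the 20754 genes of the array measured in both comparisons, the same 3 shares were 6.67%, 10.4% and 38.3%. Fbln5 had the widest split, at -2.74 and 1.27. Lox followed, at -0.92 and 1.47. Lamb1 (-0.57 and 0.88) and Thbs2 (-0.70 and 0.75) took the same pair of signs within 2-fold.

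Promoter sequence is given for 2 members with contrasting patterns, Col1a2, high in every coculture, and Postn, seen with Lpar1-/- fibroblasts. Both stretches are from RefSeq on GRCm38.p6 and end at the base before the annotated start. For Col1a2 it is chr6:4505488-4505617 (plus strand), with CCAAT in capitals, and for Postn it is chr3:54361007-54361106 (plus strand), with TATAAA in capitals.
Col1a2: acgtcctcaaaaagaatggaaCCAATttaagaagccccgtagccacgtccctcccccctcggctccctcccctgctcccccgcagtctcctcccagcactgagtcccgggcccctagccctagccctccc
Postn: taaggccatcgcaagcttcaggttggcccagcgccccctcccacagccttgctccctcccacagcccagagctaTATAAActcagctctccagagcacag

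RefSeq windows of 300 bases, from 250 before to 50 after a start, were found for 27 of the 40 genes, in 32 windows. Motifs were searched on both strands. TATAAA was in 5 of the 32 windows (15.6%), those of Col3a1, Postn, Thbs2 and Tnc, and in 13.6% of all 32851 windows. CCAAT was in 12 (37.5%, against 37.4%), and GGGCGG in 23 (71.9%, against 35.7%). TGANTCA was in 1, that of Col6a1 (7.8% of all windows). CATTCC was in 4, those of Col3a1, Col6a2, Col18a1 and Nid1 (14.7% of all windows), and the CArG box was in 0 (1.6% of all windows). These are matches of letters and not measured binding sites.

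Probes of the same gene did not always give the same difference, which matters for 13 members with several probes. Sparc was the plainest case. Its brightest probe (chr11:55208939-55208998) and its dimmest probe (chr11:55208002-55208061) were higher in Pla2g3+/+ coculture, by 8.62 and by at least 7.62 on the log2 scale. The second probe, at chr11:55207772-55207831, differed by 0.29. In coculture it differed between the labels by 0.07, where the brightest probe gave -1.08. The Col16a1 helix probe printed above differed by 0.53 in Pla2g3+/+ coculture, whereas the brightest probe, 19876 bases away, gave 5.55. Hspg2 gave 3.62 and 0.55 from probes 947 bases apart. The second Col18a1 probe differed by 0.52 in the Pla2g3-/- labelled pair, where the brightest gave -0.29. With Lpar1-/- fibroblasts these 2 Col18a1 probes differed by 1.08 and 0.30.

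Loxl2 was level by its brightest probe, but its second probe was higher by 2.02 on Lpar1-/- fibroblasts and read -3.92 there against -5.94. Its dimmest probe was well above background on the Lpar1-/- array alone, at -5.997. Lox, Loxl1, Vcan and Nid1 had probes that shared their direction in every comparison where both probes were measured or bounded and the difference exceeded the yardstick. Which transcript each probe reads was not tested.

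**Figure D4:**
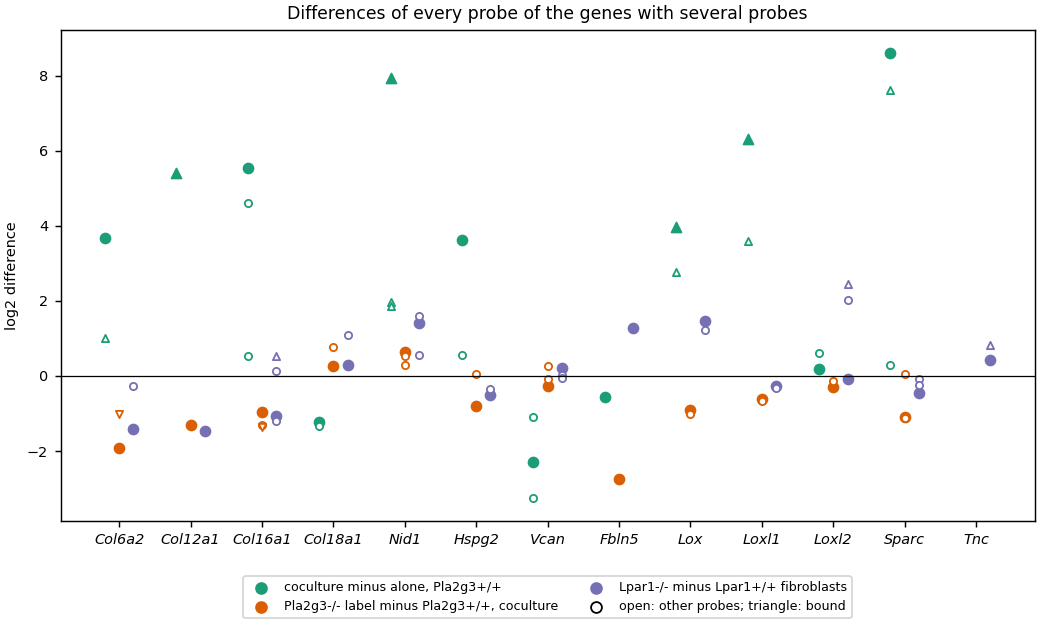
Difference of every probe of the 13 genes with several probes (y axis, log2) in 3 comparisons: coculture against mast cells alone for Pla2g3+/+ (green), Pla2g3-/- label against Pla2g3+/+ in coculture (orange) and Lpar1-/- against Lpar1+/+ fibroblasts (purple). Filled symbols are brightest probes, open symbols the others, and triangles are bounds; Sparc, Hspg2 and Col16a1 show wide gaps between probes, and Lox shows none in direction.

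Other genes of the matrix were read from 5 lists with 87 genes. In Pla2g3+/+ coculture 32 of 75 were higher and 3 lower, with a median of 0.77, against 13.0% and 7.52% of all genes. In the Pla2g3-/- labelled pair 26 of 74 were higher and 6 lower, with a median of 0.45, against 11.4% and 7.3%. The collagen modifying and export genes had 8 of 23 higher for Pla2g3+/+. Among these, Fkbp10, a collagen chaperone, was at least 347-fold, Adamts2, a procollagen N-proteinase, at least 84.4-fold and Pcolce2 at least 49.8-fold higher. Of other collagen chains 3 of 12 were higher, namely Col4a5 (at least 37.2-fold), Col5a3 (17.1-fold) and Col7a1 (3.95-fold), and Col27a1 was lower, at -2.37. Of laminin and glycoprotein genes 9 of 17 were higher, among them Matn2 (at least 71.5-fold) and Spp1, the gene of osteopontin (17.6-fold). Lama5, the laminin alpha 5 chain, was lower, at -2.83, and so was Lamb3, at -1.44.

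Of other elastic fibre genes 7 of 13 were higher. Ltbp1, a latent TGF-beta binding protein gene, was 59.1-fold, Efemp2 44.8-fold and Ltbp2 32.6-fold higher. Of other proteoglycans 5 of 10 were higher, with Sdc4 at least 59.6-fold, Sdc2 at least 58.7-fold and Ogn at least 36.1-fold, while Srgn, the granule proteoglycan of mast cells, differed by -0.04.

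Between the labels in coculture, 18 of 74 of these genes were lower and 3 higher, with a median of -0.40. Over all genes, 10.4% were lower and 9.1% higher. The lowest were Lama4, the laminin alpha 4 chain, at -3.12, Tgfbi, an adhesive matrix protein gene, at -2.85 and Matn2 at -2.35. Tgfbi was also lower under the label in mast cells alone, at -2.52. P3h2, a prolyl 3-hydroxylase gene, was at least 4.32-fold lower, and Adamts14 and Adamts2 differed by -2.02 and -1.53. The higher genes were Bmp1, the procollagen C-proteinase (3.01-fold), Lama5 (2.79-fold) and P4ha1, a prolyl 4-hydroxylase subunit (2.71-fold). P4ha2, another prolyl 4-hydroxylase subunit gene, differed by -1.23.

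With Lpar1-/- fibroblasts 13 of 77 were lower and 7 higher, with a median of -0.21. Over all genes, 8.84% were lower and 11.3% higher, so the count of higher genes was not above that share. Ogn, the gene of osteoglycin, differed by -4.08, the widest difference in these lists, from -2.83 to -6.92. Pcolce2 followed at -2.12, Lama4 at -1.92 and Matn2 at -1.84. Ltbp2 and Ltbp1 were 3.47-fold and 2.53-fold, Lamb3 3.20-fold, Bmp1 2.77-fold and Col27a1 2.61-fold higher.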

How the data were processed

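Per the file headers, the authors scanned single-colour Cy3 arrays and extracted a spot intensity with Agilent Feature Extraction 12.1.1.1, including detrending and background subtraction; probe coordinates are on mm9. In the deposited value table the values are a linear signal, equal on every array to the processed intensity divided by 1 constant (1230.44 to 1520.37), and was used as an alternative. The main values are log2 of the processed intensity minus each array's 75th percentile over 43020 noncontrol spots. Spots marked as outliers (84 to 115 per array) were dropped, no spot was saturated, and log2 values were averaged per probe. Each gene was represented by its brightest probe on average over the arrays.

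A gene was compared where at least 1 array was well above background and counted at 2-fold. A bound was taken from the bright array's level minus the higher of the dim probe's level and the lowest level among probes well above background on the dim array. Groups had no replicates, so no p-value is given, and the precision is limited by the number of arrays. The calculation was tested on simulated data. Members, classes and lists were chosen with earlier results of these data known. Every member could be named; levels are given for the first members of each class and the 3 highest and 3 lowest per comparison. Other matrix genes were limited to at most 3 in each direction per list. The values of 1 gene of these lists are not reported here. P4ha2 and Srgn were named after their values were seen. Gene names came from the assembly GRCm38.p6 and no mm9 annotation was used here, so probes are not placed in exons or untranslated regions. The sources used here do not say whether RNA came from cells separated by reseeding or by CD117 beads.

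Python 3.11.15, numpy 2.4.6, pandas 2.3.3, R 4.3.3 and limma 3.58.1 (normexp, offset 50) were used. Alternatives were normexp, quantile normalization, another percentile set, the value table, other probe and dim-probe rules, thresholds of 1.5-fold and 4-fold, the other wild-type coculture, and Hspg2 as a proteoglycan.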

Additional observations from a re-analysis of the deposited data

How the results depend on the processing

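With 1 array per group, the settings bear on the scale and the choice of probes and not on the spread between cultures. No paired analysis was possible because each group had 1 array. After normexp, the median of matrix genes was 2.66 in the Pla2g3+/+ and 2.04 in the Pla2g3-/- labelled coculture comparison, where 1 member was lower. In the label comparison in coculture 9 were lower (median -0.62), and class medians were -0.87 for other collagens, -0.57 for elastic fibre and -0.50 for folding genes. With Lpar1-/- fibroblasts 3 were lower and the fibrillar median was -0.36. Quantile normalization gave coculture medians of 5.17 and 3.89. The mean of probes gave 3.96 and 3.99, and with Lpar1-/- fibroblasts 2 lower members and a median of -0.54 for other collagens. By its second probe Sparc reversed to 0.066 between the labels in coculture. With only genes above background on both arrays, 13 and 14 of 20 members were higher in coculture (medians 3.22 and 2.17). Genes dark in mast cells alone drop out under this rule, and the Lpar1 median of glycoproteins was -0.15. With no filter on dim probes the coculture medians were 5.75 and 4.64, 2 members were higher and 2 lower between mast cells alone, 2 were higher in the wild-type pair, and the Lpar1 median of fibrillar collagens was -0.39. At 1.5-fold, 1 was higher and 3 lower in mast cells alone, 1 higher and 25 lower in the label comparison in coculture, 9 lower with Lpar1-/- fibroblasts and 1 higher in the wild-type pair. At 4-fold, 1 was lower in Pla2g3+/+ coculture, 2 in the label comparison in coculture, and 1 higher and 0 lower with Lpar1-/- fibroblasts. With the other wild-type coculture 1 was lower in Pla2g3+/+ coculture. With Hspg2 counted as a proteoglycan, that class had medians of -0.53 and -0.23. The cause was not tested for the other changes. Of 668 values of members past 2-fold, 45 were no longer past it and 1 reversed. In size, 200 of the 668 moved by more than 0.256, 1 standard deviation of the differences between the wild-type cocultures. After normexp, 28 of 31 values moved in the Pla2g3+/+ coculture comparison and 30 of 32 in the Pla2g3-/- labelled one.

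Scaling moved the median of all genes well above background on both arrays (no bounds, unlike the medians of the report) by over 0.1 in 4 comparisons. In Pla2g3+/+ coculture it went from 0.10 to -0.03 after quantile normalization and normexp, in the Pla2g3-/- labelled pair from 0.12 to 0.015 after quantile normalization, in the label comparison in coculture from -0.05 to 0.11 after normexp, and with Lpar1-/- fibroblasts from -0.03 to 0.08 with the percentile over probes detected on all arrays. Among all genes past 2-fold, 63.4% were higher in Pla2g3+/+ coculture (48.8% after quantile normalization), 61.0% in the Pla2g3-/- labelled pair (50.3%) and 82.8% in the wild-type pair (45.7%). Dim probes limit the values of genes dark without fibroblasts, since their signal rests partly on the scanner software's surrogate.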
